A study of Homo sapiens with 8 samples.

Results

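The interferon-stimulated effector genes were followed by RNA-seq in MDA-MB468 and BT549, established human cell lines of triple-negative breast cancer (TNBC). The set held 46 of the 55679 gene identifiers in the counts. Its members were picked by symbol among textbook interferon-induced genes, with the values of all 8 libraries and the ratios between them already known. The levels and ratios below are therefore a description of how these genes stood in the libraries, and the counts of members are read as such.

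Each line was sequenced in 4 conditions with 1 library each. Parental control cells were not selected with the drug and received none. Parental Acetalax cells were the same cells after 6 hours with 1 μmol/L Acetalax (oxyphenisatin acetate). CE (chronic exposure) cells descended from the parental line through stepwise increases of Acetalax to 40 μmol/L, were resistant to it and had then been kept 2 weeks without the drug. CE control cells received no further Acetalax, and CE Acetalax cells received 1 μmol/L for 6 hours. All cells grew in the same serum-containing medium, and none of the labels names an interferon or a virus. There was 1 CE derivative per line, which the submitters call resistant clones, so CE against parental compared 1 selected derivative with its parent in each line.

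Type I and type III interferons bind receptors on the cell surface and activate the kinases JAK1 and TYK2, which phosphorylate STAT factors. A complex that holds STAT2 and IRF9 binds the interferon-stimulated response element in promoters and turns on the effector genes. Many of the effectors recognise, degrade or trap viral RNA and proteins, some modify other proteins with the ubiquitin-like ISG15, and in tumour cells a part of them can stay on without added interferon.

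The libraries held from 42261122 to 54241728 counts on genes, and CPM below are counts scaled to this total, so that 1 CPM was from 42.3 to 54.2 counts. The 2 lines carried their own markers: the epithelial genes EPCAM, CDH1, KRT5, KRT17 and KRT8 were high in all 4 MDA-MB468 libraries, and VIM, CDH2 and ZEB1 were high in all 4 BT549 libraries. In BT549, SPARC was at 439 and 396 CPM in the parental libraries and at 3447 and 3115 CPM in the CE libraries, and KRT8 was at 1.25 and 0.851 against 34.4 and 22.2 CPM, so the CE derivative also differed from its parent outside the interferon genes. Among markers of blood and vessel cells, CD3E and HBB had 0 counts in every library, PTPRC reached 0.756 CPM and VWF 0.317 CPM, and CD14 was at 47.2 CPM in MDA-MB468 parental control cells and at no more than 2.55 CPM in BT549. In bulk RNA, fewer cells that express a gene and less of its RNA per cell cannot be told apart, and this holds for every level given here.

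The members together were at 1808, 1527, 2098 and 1765 CPM in MDA-MB468 and at 1067, 800.5, 11220 and 8507 CPM in BT549, always in the order parental control, parental Acetalax, CE control and CE Acetalax. The BT549 CE libraries stood apart from the other 6: the set took 1.122% and 0.8507% of their counts, against 0.08005% to 0.2098% elsewhere. The median member was at 6.32 CPM in BT549 parental control cells and at 128 CPM in BT549 CE control cells. The number of members over 100 CPM was 2 in the first and 28 in the second. Within each of the 4 backgrounds the sum was lower with Acetalax than without.

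**Figure D1:**
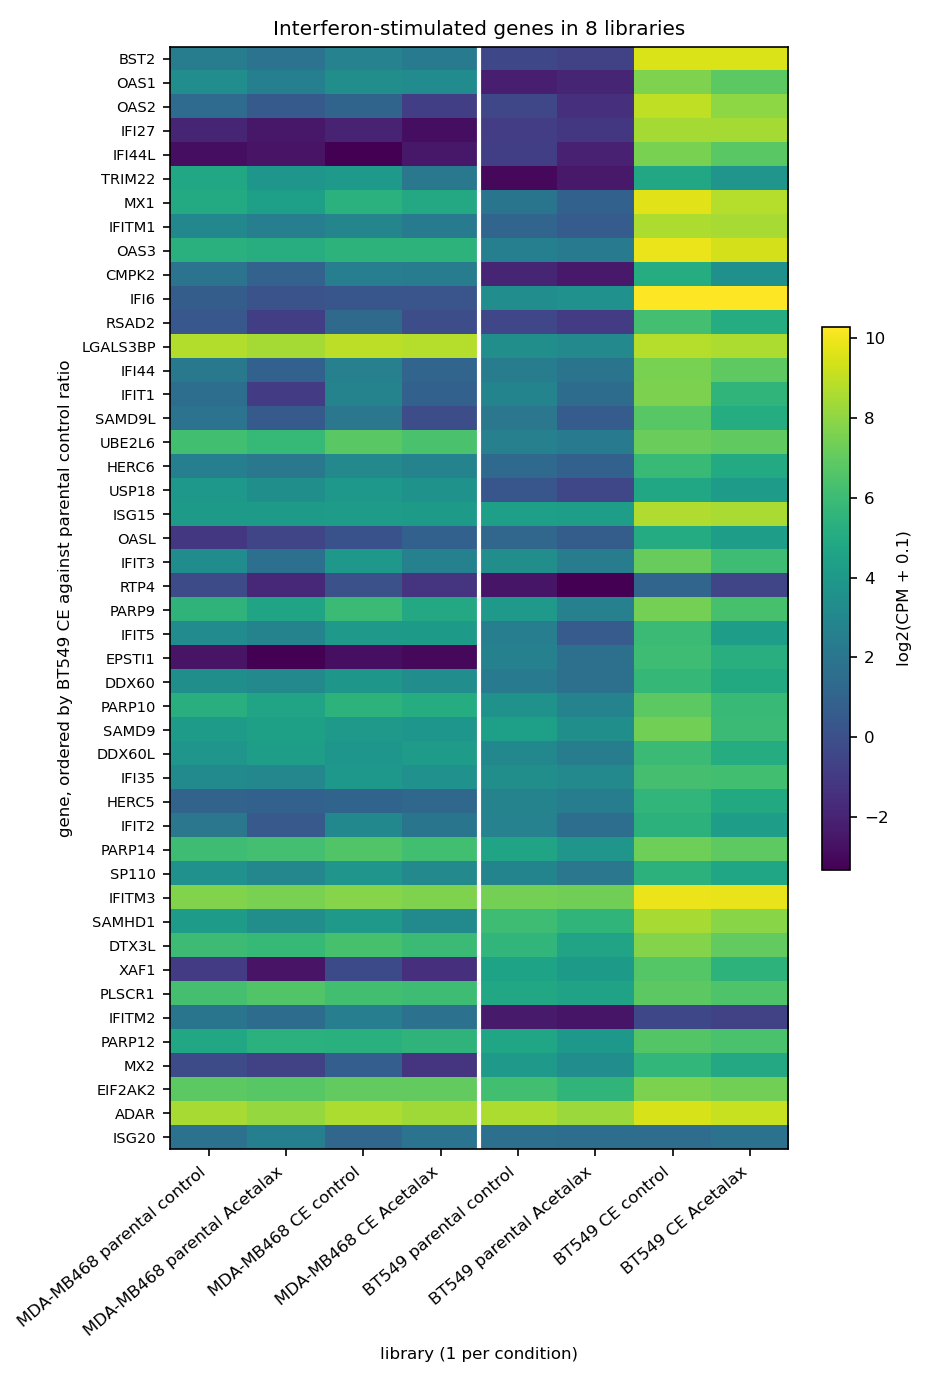
Level of each of the 46 genes (rows, ordered by the BT549 CE against parental control ratio) in the 8 libraries (columns, 1 per condition), as log2 of CPM plus 0.1 on the colour scale, with MDA-MB468 left and BT549 right of the white line. The BT549 CE columns are brighter than the BT549 parental columns for nearly every gene, while the 4 MDA-MB468 columns resemble each other, and ISG20 in the last row hardly differs between the BT549 columns.

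Interferon-responsive promoters carry repeats of the letters GAAA with a spacing of 2 bases, and the windows below are shown to let that element be seen in members with low and high Acetalax ratios, described further on. The motif searched was GAAA, then NN (any 2 bases), then GAAA, on both strands (TTTC, NN, TTTC where it lies on the other strand, with overlapping matches counted), in RefSeq windows of 300 bases, 250 before to 50 after each start site, on GRCh38.p14. It was present for 28 of the 38 members that had a window (73.7%) and for 1195 of all 27305 genes with windows (4.38%). Counted by window, 33 of 53 member windows (62.3%) and 1255 of all 35116 windows (3.57%) held it. USP18, IFIT2, IFITM2, TRIM22, OAS2, MX2, OASL and PARP10 were without a match to the windows. The following sequences are the 150 bases before the start site of 6 members, chosen after their values were seen among those with a single window, the motif within these 150 bases and a mean of at least 1 CPM. Of these, IFIT1, IFIT5 and SAMD9 had the 3 lowest and ISG20, IFI6 and BST2 the 3 highest Acetalax ratios in BT549 CE cells. Capitals mark the motif. The IFIT1 window is chr10:89392473-89392622 on the plus strand, IFIT5 is chr10:89414418-89414567 on the plus strand, and SAMD9 is chr7:93117980-93118129 on the minus strand. The ISG20 window is chr15:88638866-88639015 on the plus strand, IFI6 is chr1:27672193-27672342 on the minus strand, and BST2 is chr19:17405631-17405780 on the minus strand.
IFIT1: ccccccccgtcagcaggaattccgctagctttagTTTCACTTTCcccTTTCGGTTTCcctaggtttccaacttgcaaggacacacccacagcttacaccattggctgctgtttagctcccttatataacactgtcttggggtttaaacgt
IFIT5: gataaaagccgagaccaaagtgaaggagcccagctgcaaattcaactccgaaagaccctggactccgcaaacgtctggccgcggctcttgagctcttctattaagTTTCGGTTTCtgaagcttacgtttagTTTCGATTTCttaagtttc
SAMD9: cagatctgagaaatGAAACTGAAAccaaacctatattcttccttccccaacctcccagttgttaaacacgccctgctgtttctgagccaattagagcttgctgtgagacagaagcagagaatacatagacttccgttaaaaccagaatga
ISG20: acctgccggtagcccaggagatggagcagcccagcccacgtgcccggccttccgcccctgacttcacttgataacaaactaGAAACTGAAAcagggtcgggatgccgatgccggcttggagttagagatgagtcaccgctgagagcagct
IFI6: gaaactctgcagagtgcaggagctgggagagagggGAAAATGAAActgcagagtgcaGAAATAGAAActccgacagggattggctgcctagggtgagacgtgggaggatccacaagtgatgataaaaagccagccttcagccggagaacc
BST2: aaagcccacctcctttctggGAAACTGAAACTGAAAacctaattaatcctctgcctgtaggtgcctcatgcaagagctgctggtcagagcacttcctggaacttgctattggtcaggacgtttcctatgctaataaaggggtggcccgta

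The first motif began 116 bases before the start in IFIT1, 45 in IFIT5, 136 in SAMD9, 69 in ISG20, 115 in IFI6 and 130 in BST2. IFIT1, IFIT5, IFI6 and BST2 had 2 matches each, which overlap in BST2, and SAMD9 and ISG20 had 1. All 6 were selected for holding the motif. SAMD9L and CMPK2, with ratios of -1.60 and -1.57, had no match in their windows. Over the members with a window, the median log2 ratio of BT549 CE to parental control cells was 3.57 with the motif and 3.69 without it, and the median Acetalax ratio in BT549 CE cells was -0.64 with it and -0.75 without it.

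The first question was how the effector genes stood in resistant cells against the cells they came from. In BT549, 43 of the 45 members with a mean of at least 1 CPM were 2-fold or more higher in CE than in parental control cells (7.71% of the 14030 such genes were) and 0 were 2-fold or more lower (5.61%). Among the Acetalax libraries of BT549, again 43 were higher (6.17%) and 0 lower (8.78%). The median log2 ratio of the members, of CPM plus 0.1, was 3.46 in the control pair and 3.66 in the Acetalax pair, where all genes had medians of -0.04 and -0.13. RTP4, under the minimum, was described apart. ADAR and ISG20 were the members under 2-fold in both BT549 pairs. With 1 library per condition there was no replicate behind these ratios, and the intervals given for folds are exact 95% intervals that cover counting error only.

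Among the membrane-bound restriction factors, BST2 (tetherin), which holds budding virus particles at the cell surface, had the highest log2 ratio of all members, of CPM plus 0.1. BST2 was at 5.24, 3.54, 6.39 and 4.73 CPM in MDA-MB468 and at 0.686, 0.552, 747 and 728 CPM in BT549. BST2 was lower in BT549 than in MDA-MB468 as parental cells and far higher as CE cells, with a CE fold in BT549 of 1089 in the control pair (interval 758 to 1626) and 1320 in the Acetalax pair (887 to 2060). The IFITM proteins block fusion of virus with cell membranes. IFITM1 was at 8.21, 5.56, 7.18 and 4.77 CPM in MDA-MB468 and at 2.04, 1.47, 396 and 366 CPM in BT549. IFITM3 was at 213, 186, 225 and 202 CPM in MDA-MB468 and at 173, 164, 966 and 930 CPM in BT549. IFITM1 and IFITM3 were therefore both highest in BT549 CE cells, but from different starting points, with folds of 195 and 5.59 in the control pair. IFITM2 was at 3.80, 2.76, 5.48 and 3.32 CPM in MDA-MB468 and at 0.0946, 0.069, 0.664 and 0.534 CPM in BT549, where the parental libraries held 4 and 3 counts. Its BT549 CE folds were 7.01 (2.51 to 27.1) and 7.74 (2.38 to 39.9), and it stayed below the MDA-MB468 level in CE cells too. The IFITM genes are close paralogs and the annotated IFITM2 span takes in IFITM1, so the split of reads between them is uncertain.

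RTP4, a transport protein for membrane receptors, had 38, 9, 41 and 15 counts in MDA-MB468 and 3, 0, 113 and 31 counts in BT549. Its BT549 CE fold was 29.3 (9.79 to 144) in the control pair and at least 8.89 in the Acetalax pair, where the parental library had 0 counts and a floor of 3 counts was used. PLSCR1, a phospholipid scramblase with antiviral activity, was at 28.3 and 115 CPM in BT549 parental and CE control cells, a fold of 4.07.

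The small IFI proteins held some of the widest differences. IFI27, a mitochondrial and nuclear-envelope protein, was at 0.165, 0.0824, 0.159 and 0.042 CPM in MDA-MB468 and at 0.450, 0.368, 346 and 353 CPM in BT549. In MDA-MB468 these were from 2 to 8 counts, whereas the BT549 CE libraries held 18758 and 17832. The fold in BT549 was 769 (492 to 1278) without and 959 (590 to 1677) with Acetalax. IFI6, an inner-membrane and endoplasmic reticulum protein that limits virus replication and apoptosis, was at 1.52, 1.03, 1.16 and 1.11 CPM in MDA-MB468 and at 10.2, 12.0, 1251 and 1255 CPM in BT549. Per length it was the most abundant member, with 1337 FPKM (CPM per kilobase of merged exon) in BT549 CE control cells, against 679 FPKM for BST2, 462 FPKM for ISG15 and 340 FPKM for IFITM3. In MDA-MB468 parental control cells the order was another one, since IFI6 stood at 1.63 FPKM, BST2 at 4.76, ISG15 at 19.4 and IFITM3 at 74.8 FPKM.

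IFI44L and IFI44, neighbours on chromosome 1, differed in MDA-MB468. IFI44L had 2, 3, 0 and 4 counts there and was at 0.473, 0.138, 190 and 112 CPM in BT549. IFI44 was at 4.38, 1.77, 5.96 and 2.06 CPM in MDA-MB468 and at 5.13, 3.63, 189 and 123 CPM in BT549. Both were highest in BT549 CE control cells, with CE folds of 402 (260 to 659) for IFI44L and 36.9 for IFI44. IFI35 was at 10.5 and 77.2 CPM in the BT549 parental and CE control libraries, a fold of 7.33.

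The 2-5 oligoadenylate synthetases sense double-stranded RNA and switch on RNase L. OAS1 was at 10.3, 5.85, 10.7 and 9.29 CPM in MDA-MB468 and at 0.118, 0.161, 206 and 117 CPM in BT549. OAS2 was at 2.61, 1.36, 1.97 and 0.484 CPM in MDA-MB468 and at 0.639, 0.253, 504 and 251 CPM in BT549. OAS3 was at 39.4, 35.2, 44.7 and 44.1 CPM in MDA-MB468 and at 5.82, 5.06, 958 and 693 CPM in BT549. All 3 were lower in BT549 than in MDA-MB468 as parental cells and higher as CE cells, with BT549 control folds of 1738 (745 to 5354, from 5 parental counts), 789 (542 to 1197) and 165. OASL, a family member without synthetase activity, was at 0.370, 0.618, 0.974 and 1.81 CPM in MDA-MB468 and at 2.13, 1.54, 33.4 and 18.7 CPM in BT549. It was higher in CE than in parental cells of both lines, by 2.63-fold in MDA-MB468 and 15.7-fold in BT549 control cells.

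MX1, a GTPase that traps viral ribonucleoprotein, was at 31.9, 20.8, 41.9 and 29.8 CPM in MDA-MB468 and at 3.88, 1.79, 824 and 444 CPM in BT549. Its BT549 control fold was 212. MX2, the neighbouring paralog that acts on retroviruses, was at 16.3 and 51.3 CPM in BT549 parental and CE control cells (3.14-fold) and at no more than 1.59 CPM in MDA-MB468. MX1 and MX2 thus differed widely in their ratio although they lie 10913 bases apart on chromosome 21.

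RSAD2 (viperin), which makes a chain-terminating nucleotide, was at 1.19, 0.473, 2.47 and 0.820 CPM in MDA-MB468 and at 0.639, 0.414, 75.1 and 34.0 CPM in BT549. CMPK2, a mitochondrial nucleotide kinase whose span overlaps that of RSAD2 on the other strand, was at 3.496, 1.81, 5.57 and 5.28 CPM in MDA-MB468 and at 0.166, 0.092, 33.8 and 11.3 CPM in BT549. The BT549 control folds were 118 (80.6 to 179) for RSAD2 and 204 (98.9 to 508, from 7 parental counts) for CMPK2. Of the remaining enzymes, SAMHD1, which hydrolyses deoxynucleotides, was 5.51-fold higher in BT549 CE control cells, EIF2AK2 (the kinase PKR) 2.705-fold and the RNA-editing enzyme ADAR 1.85-fold. ISG20, an exonuclease, was at 3.31, 5.72, 2.15 and 3.49 CPM in MDA-MB468 and at 3.19, 2.90, 2.78 and 3.34 CPM in BT549. ISG20 was the member that was not higher in the BT549 CE control library.

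The IFIT proteins bind viral RNA ends. IFIT1 was at 2.88, 0.412, 6.75 and 1.79 CPM in MDA-MB468 and at 6.89, 2.74, 198 and 48.6 CPM in BT549. IFIT3 was at 9.69, 3.03, 15.3 and 6.12 CPM in MDA-MB468 and at 10.4, 5.24, 141 and 67.3 CPM in BT549. IFIT5 was at 9.42, 6.79, 15.7 and 16.7 CPM in MDA-MB468 and at 5.66, 1.40, 63.2 and 19.5 CPM in BT549. In both lines and under both treatments the 4 IFIT genes were higher in CE than in parental cells. The log2 ratios ranged from 2.74 (IFIT2) to 4.82 (IFIT1) in the BT549 control pair and from 0.66 (IFIT3) to 1.20 (IFIT1) in the MDA-MB468 control pair.

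The group named ISG15 pathway comprised the modifier, enzymes that attach or remove it, and HERC6, a relative of the ligase HERC5. ISG15 was at 16.9, 17.2, 17.7 and 16.9 CPM in MDA-MB468 and at 20.6, 19.5, 400 and 381 CPM in BT549. UBE2L6, its conjugating enzyme, was at 72.4, 55.7, 110 and 84.5 CPM in MDA-MB468 and at 5.96, 4.94, 145 and 125 CPM in BT549. USP18, which removes ISG15 and dampens the interferon receptor, was at 15.4, 10.9, 15.2 and 12.4 CPM in MDA-MB468 and at 1.16, 0.644, 27.8 and 17.9 CPM in BT549. In MDA-MB468, ISG15 was level across the 4 libraries. In BT549 the control folds were 19.4 for ISG15, 24.3 for UBE2L6 and 24.0 for USP18. HERC6 was at 5.82, 4.26, 8.27 and 6.73 CPM in MDA-MB468 and at 2.44, 1.75, 57.6 and 32.3 CPM in BT549. HERC5, the main ligase for ISG15, was 7.34-fold higher in BT549 CE control cells.

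PARP9 and DTX3L work as a complex that modifies histones and viral proteins. PARP9 was at 45.9, 24.8, 62.8 and 29.8 CPM in MDA-MB468 and at 15.8, 6.09, 176 and 79.9 CPM in BT549. Its BT549 control fold was 11.1, against 4.52 for DTX3L, 6.18 for PARP14, 9.37 for PARP10 and 3.91 for PARP12. SAMD9L, a translation-restricting factor, was at 3.54, 1.36, 4.19 and 0.820 CPM in MDA-MB468 and at 4.17, 1.47, 106 and 34.9 CPM in BT549. Its paralog SAMD9 was 8.37-fold higher in BT549 CE control cells, SAMD9L 25.5-fold, and the helicases DDX60 and DDX60L were 10.7-fold and 7.49-fold higher. Reads that fit both members of these paralog pairs could be split between them or lost.

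TRIM22, an antiviral ubiquitin ligase, was at 27.7, 14.1, 15.6 and 4.29 CPM in MDA-MB468 and at 0.0237, 0.092, 28.0 and 13.6 CPM in BT549. TRIM22 thus went opposite ways with CE in the 2 lines: it was higher in BT549 CE cells, by 1182-fold (212 to 46710) from 1 parental count, and lower in MDA-MB468 CE cells, at 0.56 and 0.30 of the parental level. LGALS3BP, a secreted glycoprotein, was at 420, 356, 495 and 446 CPM in MDA-MB468 and at 10.5, 8.32, 443 and 395 CPM in BT549. The BT549 CE cells therefore stood near the MDA-MB468 level of LGALS3BP. XAF1, an antagonist of the apoptosis inhibitor XIAP, was at 0.411, 0.0618, 0.748 and 0.252 CPM in MDA-MB468 and at 24.1, 17.0, 105 and 44.95 CPM in BT549. EPSTI1 had 3, 0, 2 and 1 counts in MDA-MB468 and was at 6.22, 3.20, 68.0 and 37.0 CPM in BT549, a CE fold of 10.9. SP110, a nuclear body protein, was 6.13-fold higher in BT549 CE control cells.

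**Figure D2:**
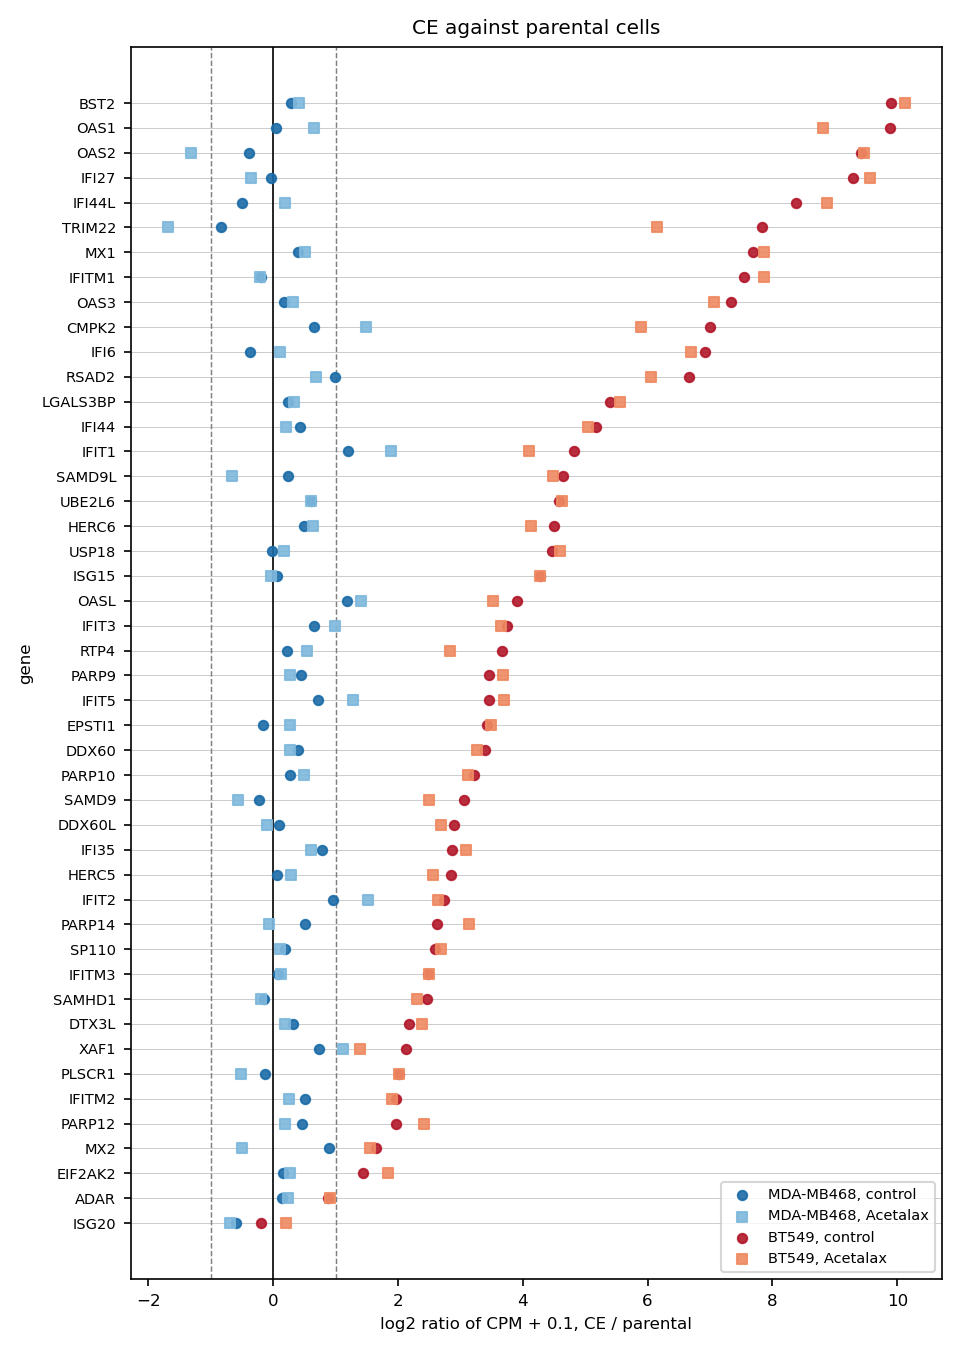
Log2 ratio of CPM plus 0.1, CE over parental, for each gene (rows) in MDA-MB468 (blue) and BT549 (red), circles for control and squares for Acetalax libraries, 1 library on each side of a ratio, with dashed lines at 2-fold. The BT549 points reach from -0.19 (ISG20) to 10.13 (BST2), while the MDA-MB468 points lie between -1.69 (TRIM22) and 1.88 (IFIT1).

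In MDA-MB468, 2 members (IFIT1 and OASL) were 2-fold or more higher in CE than in parental control cells (2.49% of genes) and 0 were lower (2.12%). In the Acetalax libraries, 6 were higher (3.04%) and 2 lower (3.09%). The medians were 0.24 and 0.26, with 33 and 32 of 45 members above 0. All genes had medians of 0.03 and 0.06, with 55.85% and 57.01% above 0. OAS2 and TRIM22 were the lower ones. The higher ones were IFIT1, IFIT2, IFIT5, OASL, CMPK2 and XAF1, of which XAF1 rested on 12 against 3 counts, with a fold of 4.08 (1.10 to 22.6). In all 4 CE against parental pairs, 28 members were higher (14.4% of genes) and 0 were lower (12.4%).

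The fit by edgeR used the control and Acetalax libraries of each state together, with Benjamini-Hochberg adjustment over all genes and a threshold of 0.05. The same cells supplied both, so the test measured only the spread between libraries of these cells, and it tested the contrasts on which the members were picked. In BT549 it called 45 of 46 members higher in CE cells and ISG20 in neither direction, where 22.4% of all genes were called in either direction, and the median log2 fold change was 3.76. The fold changes ranged from 0.99 (SE 0.09) for ADAR to 10.31 (SE 0.17) for BST2 among those called, and ISG20 had 0.10 (SE 0.22). Here and below, SE was derived from the test as the absolute log2 coefficient divided by the square root of its F statistic. It is not a separate estimate of error and may understate the error of large folds that rest on few counts. In MDA-MB468 it called 7 members (4.42% of all genes). IFIT1 (1.47, SE 0.26), OASL (1.44, SE 0.26), IFIT2 (1.21, SE 0.21), IFIT5 (0.98, SE 0.20), IFIT3 (0.78, SE 0.15) and UBE2L6 (0.57, SE 0.11) were higher and TRIM22 (-1.29, SE 0.28) lower. Without the MDA-MB468 Acetalax pair 0 members were called there (1.42% of genes), and without the BT549 Acetalax pair 13 (8.32%). The difference between the lines in the CE effect was called for 42 members (12.2% of all genes), each with the larger value in BT549. MX2, ISG20, XAF1 and EPSTI1 were the 4 not called.

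When the 2 lines served as the replicates of 1 CE effect in the control libraries, edgeR called 0 members and 0 genes (0.0%), with a smallest adjusted p of 0.947. At an unadjusted p under 0.05 there were 8 of 46 members and 610 genes (3.32%). DESeq2 called 0 members (0.305% of genes), and edgeR without a filter on low counts called 1 (0.131%). The common fold change over both lines had a median of 2.15 for the members, with 45 of 46 above 0, and averaged the large BT549 and small MDA-MB468 ratios.

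The upstream genes of the pathway were given by a list of ligands, receptors, kinases, factors, sensors and inhibitors, of which 35 had a mean of at least 1 CPM. In BT549 CE against parental control cells, 12 of the 35 were 2-fold or more higher (7.71% of genes) and 2 lower (5.61%). In MDA-MB468 CE control cells 0 were higher (2.49%) and 0 lower (2.12%). By edgeR, 19 of 37 tested list genes were called higher and 3 lower in BT549 CE cells (22.4% of all genes in either direction), and 0 higher and 1 lower in MDA-MB468 (4.42%).

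Interferon transcripts themselves were rare. IFNB1 had 0, 2, 0 and 4 counts in MDA-MB468 and 3, 3, 12 and 29 counts in BT549, where edgeR called it higher in CE cells (log2 fold change 2.52, SE 0.68). IFNL2 had 0 counts in every library and IFNG had 1 count in BT549 CE Acetalax cells and 0 elsewhere. IFNE was at 2.91 CPM in BT549 parental and 1.03 CPM in BT549 CE control cells and was called lower (-1.11, SE 0.28). The 2 interferon transcripts thus differed in direction. The receptor gene IFNAR1 was at 46.6 and 46.1 CPM in these 2 libraries. IFNAR2 was at 2.15 and 2.64 CPM, and IFNLR1, a subunit of the type III receptor, was at 10.3 CPM in MDA-MB468 parental control cells and had from 0 to 1 counts in BT549.

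Among the factors, STAT2 was at 37.0, 28.3, 42.9 and 31.3 CPM in MDA-MB468 and at 18.7, 13.6, 109 and 54.6 CPM in BT549. STAT2 was highest in BT549 CE cells, and its fold change there was called by edgeR (2.37, SE 0.15, on the log2 scale). IRF9, its partner in the promoter-binding complex, was at 1.30, 2.33, 0.951 and 1.28 CPM in MDA-MB468 and at 4.07, 4.48, 6.47 and 9.95 CPM in BT549. IRF7, which drives interferon genes and is itself induced by interferon, was at 19.2, 19.0, 22.0 and 15.1 CPM in MDA-MB468 and at 4.00, 4.28, 58.4 and 50.7 CPM in BT549. IRF9 thus moved less than IRF7, with log2 fold changes of 1.00 (SE 0.23) and 3.81 (SE 0.19). IRF1 was at 40.0 and 52.6 CPM in BT549 parental and CE control cells. With Acetalax it was at 32.95 and 62.31 CPM. The log2 fold change by edgeR over both BT549 pairs was 0.75 (SE 0.17).

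Sensors of nucleic acids were among the list genes with the widest differences. IFI16, a DNA sensor, was at 0.514, 0.0618, 0.702 and 0.147 CPM in MDA-MB468 and at 0.142, 0.230, 147 and 125 CPM in BT549. AIM2, the DNA sensor of an inflammasome, had 0 counts in all libraries but the BT549 CE ones, where it had 169 and 70. IFIH1 (MDA5), a sensor of long double-stranded RNA, was at 28.1, 27.6, 35.5 and 33.6 CPM in MDA-MB468 and at 5.89, 4.18, 102 and 85.5 CPM in BT549. In both BT549 CE pairs DHX58, TLR3, TMEM173 (STING) and SOCS3 were also past 2-fold higher, with log2 ratios from 1.62 to 3.26. MB21D1 (cGAS) was lower, at 33.5 and 15.3 CPM in BT549 parental and CE control cells. JAK2 was past 2-fold lower in the Acetalax pair, with a log2 ratio of -1.22.

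The second question was how the effector genes answered 6 hours of Acetalax. In no background was a member 2-fold or more higher with Acetalax than without: 0 of 45 in MDA-MB468 parental (4.65% of genes), 0 in MDA-MB468 CE (2.21%), 0 in BT549 parental (1.8%) and 0 in BT549 CE cells (4.05%). The members 2-fold or more lower were 7 in MDA-MB468 parental (3.99%), 11 in MDA-MB468 CE (2.58%), 8 in BT549 parental (2.45%) and 12 in BT549 CE cells (12.4%). Their median log2 ratios were -0.49, -0.35, -0.50 and -0.77, and those of all genes -0.10, -0.05, -0.10 and -0.20. Lower in all 4 backgrounds were 30 members (29.5% of genes), and higher in all 4 were 0 (11.8%).

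Scaling bore on these counts. Division by total counts left the median of all genes in BT549 CE cells at -0.20, and the TMM factors of edgeR, a trimmed mean that sets aside extreme genes, at 0.00, a shift above 0.1. With TMM, 35 rather than 42 members were below 0 in BT549 CE cells, and 6 rather than 12 were 2-fold or more lower. In CPM, 64.03% of all genes were below 0 there and 12.4% were 2-fold or more lower. The matching shares of all genes with TMM were not computed, so these TMM counts have no background beside them. Lower in all 4 backgrounds with TMM were 22 members (21.0% of genes).

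In the CPM given above IFIT1 was at 0.14 of its control level in MDA-MB468 parental cells (interval 0.0848 to 0.229), 0.26 in MDA-MB468 CE, 0.40 in BT549 parental and 0.25 in BT549 CE cells. IFIT2 and IFIT3 were lower in all 4 backgrounds too, by log2 ratios from -1.05 to -1.61 for IFIT2 and from -0.97 to -1.65 for IFIT3. IFIT5 was lower by -1.94 and -1.69 in BT549 parental and CE cells, but by -0.47 in MDA-MB468 parental cells and stood at 0.10 in MDA-MB468 CE cells. The 3 genes IFIT1, IFIT2 and IFIT3 lie inside the span of LIPA on the other strand, a gene with a mean of 85.8 CPM, and the strand setting of the counting was not given in the sources used here.

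SAMD9L was past 2-fold lower in each background, with log2 ratios of -1.32, -2.22, -1.44 and -1.60 in the order MDA-MB468 parental, MDA-MB468 CE, BT549 parental and BT549 CE. Its paralog SAMD9 was not: it stood at 0.21 and -0.13 in MDA-MB468 and at -0.88 and -1.45 in BT549. RSAD2 was at -1.17, -1.48, -0.52 and -1.14. PARP9 was at -0.89, -1.07, -1.37 and -1.13, and OAS2 at -0.89, -1.83, -1.06 and -1.01. These 3 genes were lower in all 4 backgrounds, while CMPK2, the neighbour of RSAD2, reached -1.57 in BT549 CE cells and only -0.07 in MDA-MB468 CE cells. XAF1 was past 2-fold lower in all backgrounds but BT549 parental (-0.50), on few counts in MDA-MB468 parental cells, where 3 against 20 gave a ratio of 0.15 (0.0286 to 0.506). TRIM22 was lower in MDA-MB468 (-0.97 and -1.84) and BT549 CE cells (-1.04) and could not be judged in BT549 parental cells, which had 1 and 4 counts.

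Other members hardly moved in CPM. How near to 0 they stood depends on the scaling, since the median of all genes in BT549 CE cells was -0.20 in CPM and 0.00 with TMM. In BT549 CE cells the log2 ratio was 0.03 for IFI27, 0.00 for IFI6, -0.04 for BST2, -0.05 for IFITM3, -0.07 for ISG15, -0.11 for IFITM1 and -0.11 for IFI35. These 7 included the 4 genes most abundant per length, and stood beside ratios of -2.02 for IFIT1 and -1.69 for IFIT5 in the same libraries. ISG15 was level in every background, between -0.08 and 0.03. ISG20 was the member with the highest Acetalax ratio in BT549 CE cells (0.26) and was also higher in MDA-MB468 parental (0.77) and CE cells (0.68), but not in BT549 parental cells (-0.13). OASL split by line, with 0.61 and 0.83 in MDA-MB468 and -0.44 and -0.83 in BT549.

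**Figure D3:**
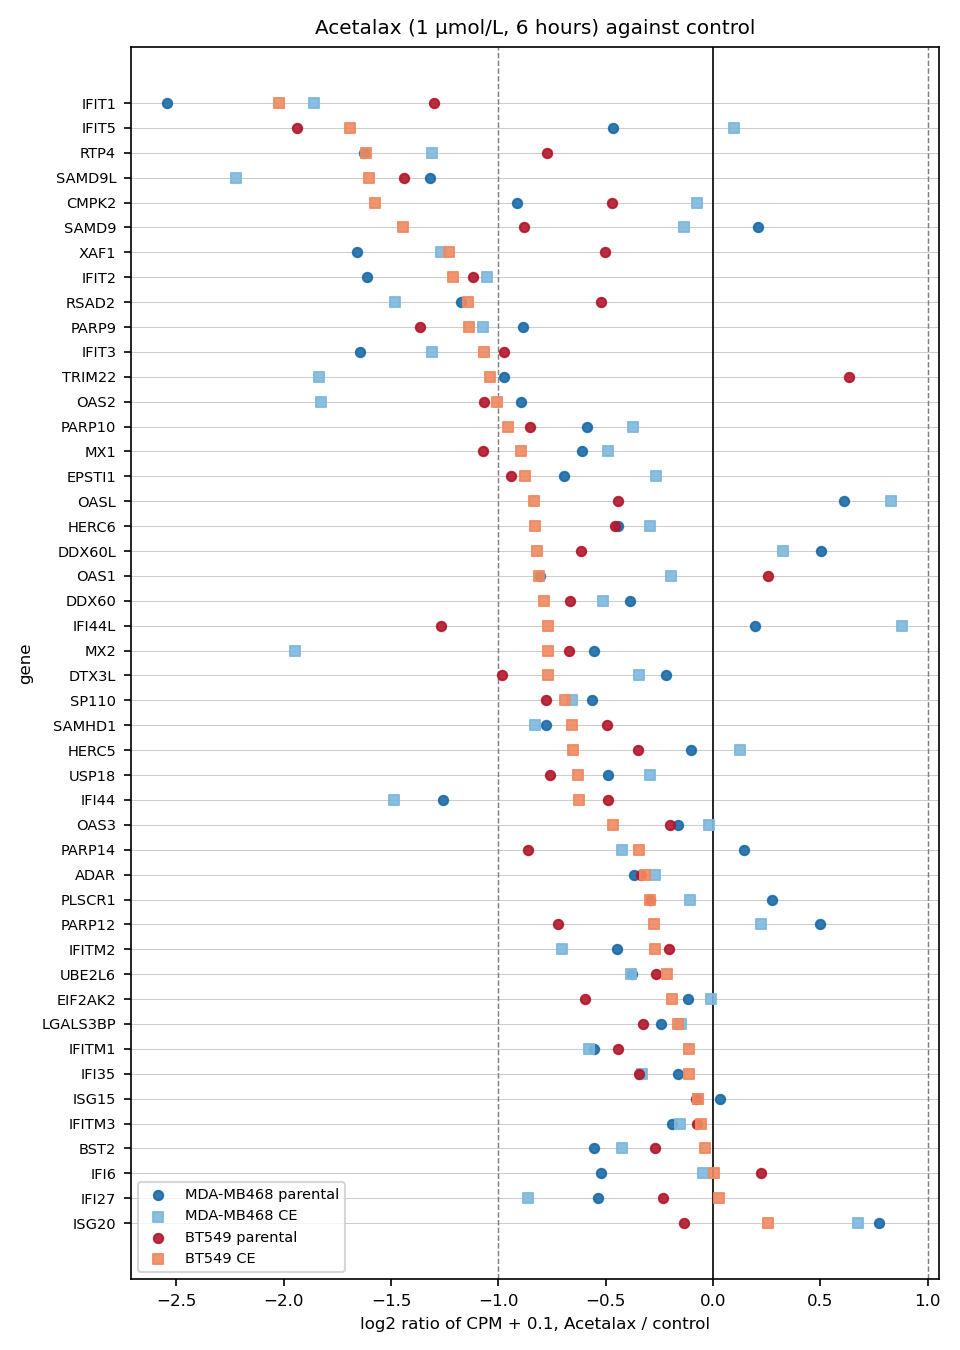
Log2 ratio of CPM plus 0.1, Acetalax over control, for each gene (rows, ordered by the BT549 CE ratio) in the 4 backgrounds, with circles for parental and squares for CE cells, blue for MDA-MB468 and red for BT549, 1 library on each side of a ratio and dashed lines at 2-fold. IFIT1, IFIT2 and SAMD9L lie left of the lower dashed line in all 4 backgrounds, and none of the genes lies right of the upper one.

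With the 2 lines as replicates, edgeR called 0 members for Acetalax in parental cells, as it called 0 genes (0.0%), and 0 members and genes in CE cells (0.0%). At an unadjusted p under 0.05 there were 15 of 46 members and 1710 genes (8.68%) in parental cells. In CE cells there were 17 of 46 members and 2311 genes (11.7%). DESeq2 called 5 members in parental cells, where it called 0.532% of the genes it gave an adjusted p, and 7 in CE cells (2.05%). Without a filter on low counts edgeR called 8 in parental cells (1.73% of genes) and 10 in CE cells (2.91%). The 4 backgrounds came from 2 lines, each with its CE derivative, so their 4 pairs are not independent, and members were picked with the Acetalax ratios known. Over the 4 backgrounds as 4 pairs, edgeR called 13 members, all lower, where 5.0% of genes were called in either direction. They were IFIT1 (-1.85, SE 0.21), RTP4 (-1.73, SE 0.32), SAMD9L (-1.59, SE 0.19), IFIT2 (-1.17, SE 0.16), IFIT3 (-1.16, SE 0.15), OAS2 (-1.12, SE 0.19), RSAD2 (-1.11, SE 0.19), PARP9 (-1.02, SE 0.11), IFI44 (-0.87, SE 0.20), MX1 (-0.66, SE 0.12), PARP10 (-0.60, SE 0.12), SAMHD1 (-0.60, SE 0.10) and SP110 (-0.59, SE 0.13). Leaving out 1 background gave 0 calls without MDA-MB468 parental (0 genes), 8 without MDA-MB468 CE (2.9% of genes), 6 without BT549 parental (1.63%) and 5 without BT549 CE cells (1.37%). Of the pathway list, TLR3 (-2.13, SE 0.23), DHX58 (-1.11, SE 0.16) and TMEM173 (-0.62, SE 0.11) were called lower and TICAM1 (1.01, SE 0.18), the adaptor of TLR3, higher.

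Among 45 members in BT549 CE cells, those with longer merged exons tended to have the lower Acetalax ratio, with Pearson's r of -0.37 and Spearman's rho of -0.39 on log2 exon length. Over all 14027 genes with a length r was -0.08. Merged exons take in every annotated transcript of a gene, so this length can exceed that of the mRNA the cells made. In the other backgrounds the members' r was -0.26 in BT549 parental, -0.09 in MDA-MB468 CE and 0.04 in MDA-MB468 parental cells. The points are genes of the same pair of libraries and are not independent, so these values are descriptions. Among the short genes ISG15, IFI6 and BST2, with 867, 936 and 1101 exon bases, the ratio lay near 0, but IFIT1 and IFIT5, with 4614 and 4369 bases, were lower than OAS3, with 18045 bases and a ratio of -0.47.

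**Figure D4:**
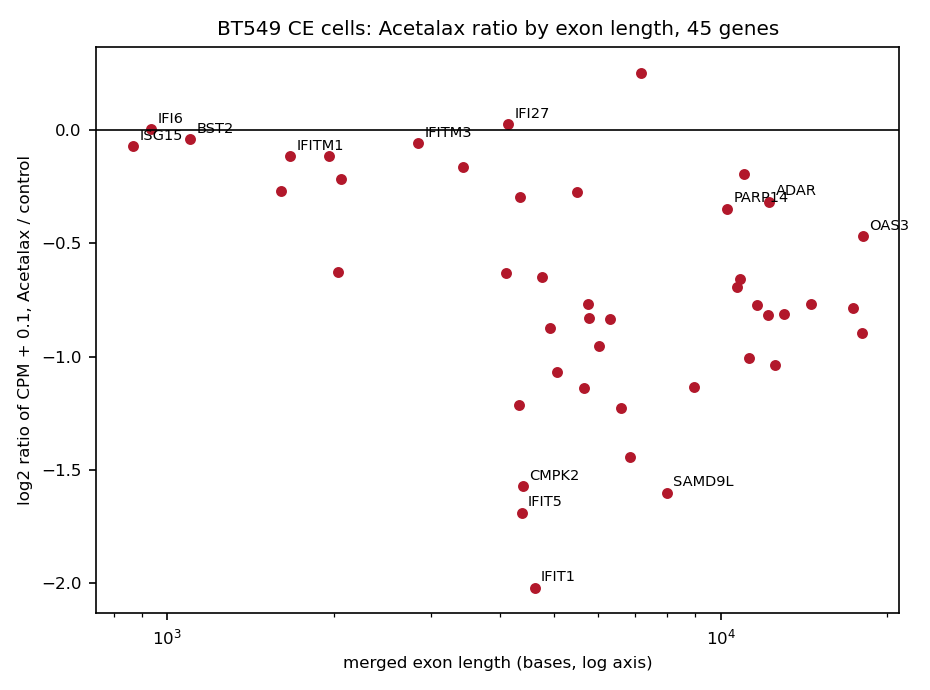
Acetalax over control log2 ratio of CPM plus 0.1 in BT549 CE cells (vertical axis) against merged exon length in bases (horizontal log axis), 1 point per gene for 45 genes, with selected genes named. The shortest genes lie near 0, and the lowest points, IFIT1, IFIT5, CMPK2 and SAMD9L, have intermediate lengths.

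Between the lines, the order of the members depended on the state of the cells. As parental control cells, BT549 was higher than MDA-MB468 in 18 members and lower in 27, with a median log2 ratio of -0.71. As CE control cells it was higher in 43 and lower in 2, with a median of 2.79. The 4 matched pairs of lines repeat the same lines in different states and are not independent. By edgeR over these 4 pairs, 14 members were called (56.8% of all genes), 13 higher in BT549 and IFITM2 lower. EPSTI1 (9.59, SE 0.70), XAF1 (7.17, SE 0.41) and MX2 (5.16, SE 0.46) were among those higher in BT549, in parental and CE cells alike. The members' median was 0.87 over the 4 pairs. It was -0.04 without the CE control pair and 0.07 without the CE Acetalax pair, and 1.92 and 1.98 without the parental control and parental Acetalax pairs.

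Many members lie near each other on the genome, with 15 pairs of successive members along a chromosome at gaps of at most 105414 bases. Genes outside the set may lie between them. On hg19, the build of the counts, IFIT2, IFIT3, IFIT1 and IFIT5 lie in this order on chromosome 10 from 91061712 to 91180758, all on the plus strand. OAS1, OAS3 and OAS2 follow each other on chromosome 12 from 113344582 to 113449528, with BT549 CE log2 ratios of 9.88, 7.34 and 9.41. PARP9 and DTX3L overlap head to head by 340 bases on chromosome 3, with ratios of 3.46 and 2.18, and both were lower with Acetalax in BT549 CE cells (-1.13 and -0.77). Also near each other, IFITM1 and IFITM3 on chromosome 11 differed by 7.54 against 2.48, and MX2 and MX1 on chromosome 21 by 1.65 against 7.69. In all, 25 members overlap the span of another gene, 23 of them on the opposite strand, and their counts are uncertain to that extent.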

How the data were processed

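The authors aligned poly(A)-selected, paired-end reads to hg19 with STAR and deposited raw counts per gene from its GeneCounts option, 1 library per sample. The labels give STAR 2.7.11b, and the paper's methods name another version. The paper names a directional library kit, but the annotation and the strand setting of the counting are not given in the sources used here. Of 58154 rows, 2475 repeats of an identifier were dropped (3 identifiers had differing repeats), leaving 55679. CPM used the total on genes and FPKM merged exon lengths. These lengths joined all exons of a gene in a GENCODE annotation lifted to hg19, which may differ from the annotation of the counts. Ratios used CPM plus 0.1 and the 14030 genes whose mean reached 1 CPM. Tests used edgeR 4.0.16 (quasi-likelihood, TMM, filterByExpr, 19693 genes or 18377 in the control libraries) in R 4.3.3, with DESeq2 1.42.0 as an alternative. The tests were checked on simulated data. Libraries were grouped by their labels, and p-values measure only the spread between these libraries, as the labels do not say which came from separate cultures.

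Members and lists were chosen with earlier results of these data known. Values in every library were to be given for members past 2-fold in both CE pairs of a line or in an Acetalax pair (the 25 with the largest ratios), for the 3 with the highest mean FPKM and for those with 3 or fewer counts in a library. Further members and list genes named were chosen after their values were seen. Some genes that this rule or the lists cover are not reported here.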

Additional observations from a re-analysis of the deposited data

Results flagged for a closer look

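The CE effect differed between the lines. By edgeR's interaction term over 8 libraries, 42 of 46 members had a larger CE against parental fold change in BT549 than in MDA-MB468 at an adjusted p under 0.05, where 12.2% of all genes were called in either direction. The members' median difference was 3.24 on the log2 scale, and 46 of 46 were above 0. Members were picked with these ratios known, there was 1 CE derivative per line, and the control and Acetalax libraries of a state came from the same cells. The line and its CE derivative therefore cannot be told apart as the carrier of this difference.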

How the results depend on the processing

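The labels carry no replicate numbers, so none served as a block. The fits over 4 backgrounds and over 4 pairs of lines are blocked by background or condition instead. BT549 CE against parental kept 45 called members under each alternative run. The counts past 2-fold moved by over 1.5 times as follows, and the shares of all genes past 2-fold were not computed under these settings. In BT549 CE cells, members lower with Acetalax were 6 with TMM and 7 with DESeq2's size factors. With a pseudocount of 0.5 CPM, MDA-MB468 CE cells had 1 higher member in the control pair and 1 lower in the Acetalax pair, and BT549 parental cells 5 lower with Acetalax. With 1 CPM these were 0, 1 and 4, with 3 higher in the MDA-MB468 CE Acetalax pair, and with Acetalax 3 were lower in MDA-MB468 parental and 7 in MDA-MB468 CE cells. Without a filter on low counts edgeR called 8 members for Acetalax in parental cells, 10 in CE cells, 21 over 4 backgrounds (9.65% of genes), 1 for CE over both lines and 11 for CE in MDA-MB468 (4.89%). DESeq2 called 5, 7 and, for CE in MDA-MB468, 11 (6.23% of genes). Leaving out 1 pair gave 0 to 8 calls for Acetalax over 4 backgrounds and 0 to 13 for CE in MDA-MB468, where the lone libraries are assumed to vary like the others. The members' median for BT549 against MDA-MB468 ranged from -0.0394, reversed, without the CE control pair to 1.9838 without the parental Acetalax pair. Of 238 values, 203 were labelled as unchanged, and the causes of the changes were not tested. A count was so labelled within 1.5 times of the main count, and a median with the same sign and within a set limit. With a line left out, that limit came from the difference between the lines themselves and was wide where they differed. The CE median over both lines was thus labelled unchanged at 0.2375 without BT549 and at 3.5675 without MDA-MB468. Leaving out a line from the fits over both lines left no residual degrees of freedom, so that only medians were compared. At 1 CPM a library held at most 54.2 counts, which limits the ratios of IFI27, IFI44L, EPSTI1, XAF1 and RTP4 in MDA-MB468.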
